A study of Caenorhabditis elegans with 2 samples.

Results

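The proteasome subunit genes of Caenorhabditis elegans were examined for sites of the nuclear hormone receptor NHR-19. The members are the protein-coding genes of the WBcel235 annotation (Ensembl release 115) whose symbols begin with pas-, pbs-, rpn- or rpt-, which gave 33 of 19973 protein-coding genes. They comprise 14 genes of the core particle and 19 of the regulatory particle. Chromatin immunoprecipitation and sequencing had been done on whole L1 larvae of strain OP791, starved after bleaching and given as 6 h of age, in 2 biological replicates of 1 group. All worms carried the integrated fosmid transgene wgIs791, in which nhr-19 is fused to TY1, EGFP and 3xFLAG tags beside unc-119(+), in the unc-119 (tm4063) mutant background. The description in the labels names an anti-GFP antibody, while the antibody field names nhr-19. The transgene is a tagged copy of nhr-19 in 1 strain, and whole animals mix all tissues. There was no second condition, and no control library or other factor was analysed here, so enrichment from NHR-19 cannot be told apart here from other sources of signal.

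The proteasome degrades proteins marked with ubiquitin. Its core particle is a barrel of outer alpha rings (pas genes), which gate entry, and inner beta rings (pbs genes), some of whose subunits carry the proteolytic sites. The regulatory particle caps the barrel. Its base holds a ring of AAA ATPases (rpt genes) that unfold substrates and open the gate, together with large scaffold subunits (rpn genes). Its lid (most of the rpn genes) removes ubiquitin chains. In C. elegans the transcription factor SKN-1A is known to raise proteasome gene expression when proteasome activity is low.

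Of the 33 genes, 16 (48.5%) had a peak summit in the promoter window, taken here as 1000 bp upstream to 500 bp downstream of the annotated 5′ end, in the authors' list from both replicates (4560 peaks). Over all protein-coding genes the share was 14.1%. A further 8 proteasome genes had a summit only in the ranked list, and 9 had none. The ranked list also holds the peaks that failed the authors' threshold on the irreproducible discovery rate (IDR). The IDR measures how well a peak's rank is repeated, in this combined list between the 2 replicates. Among genes with any ranked peak in the window, 42.1% of all and 16 of 24 (66.7%) of the proteasome genes had a summit in the thresholded list. Both particles were represented, with 7 of 14 core genes and 9 of 19 regulatory genes. In the list of either replicate alone, 4 core genes had a summit, while regulatory genes with one numbered 12 in replicate 1 and 9 in replicate 2. Among the strongest 50% of peaks of the combined list 3 core genes and 10 of the whole family had a summit, beside 8.72% of all genes. Within the core the beta subunit genes had 5 of 7 and the alpha subunit genes 2 of 7. Within the regulatory particle the ATPase genes had 4 of 6, the lid genes 4 of 9 and the base scaffold and ubiquitin receptor genes 1 of 4. The members are single genes of 1 data set and not replicates, so differences between these groups were not tested.

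**Figure D1:**
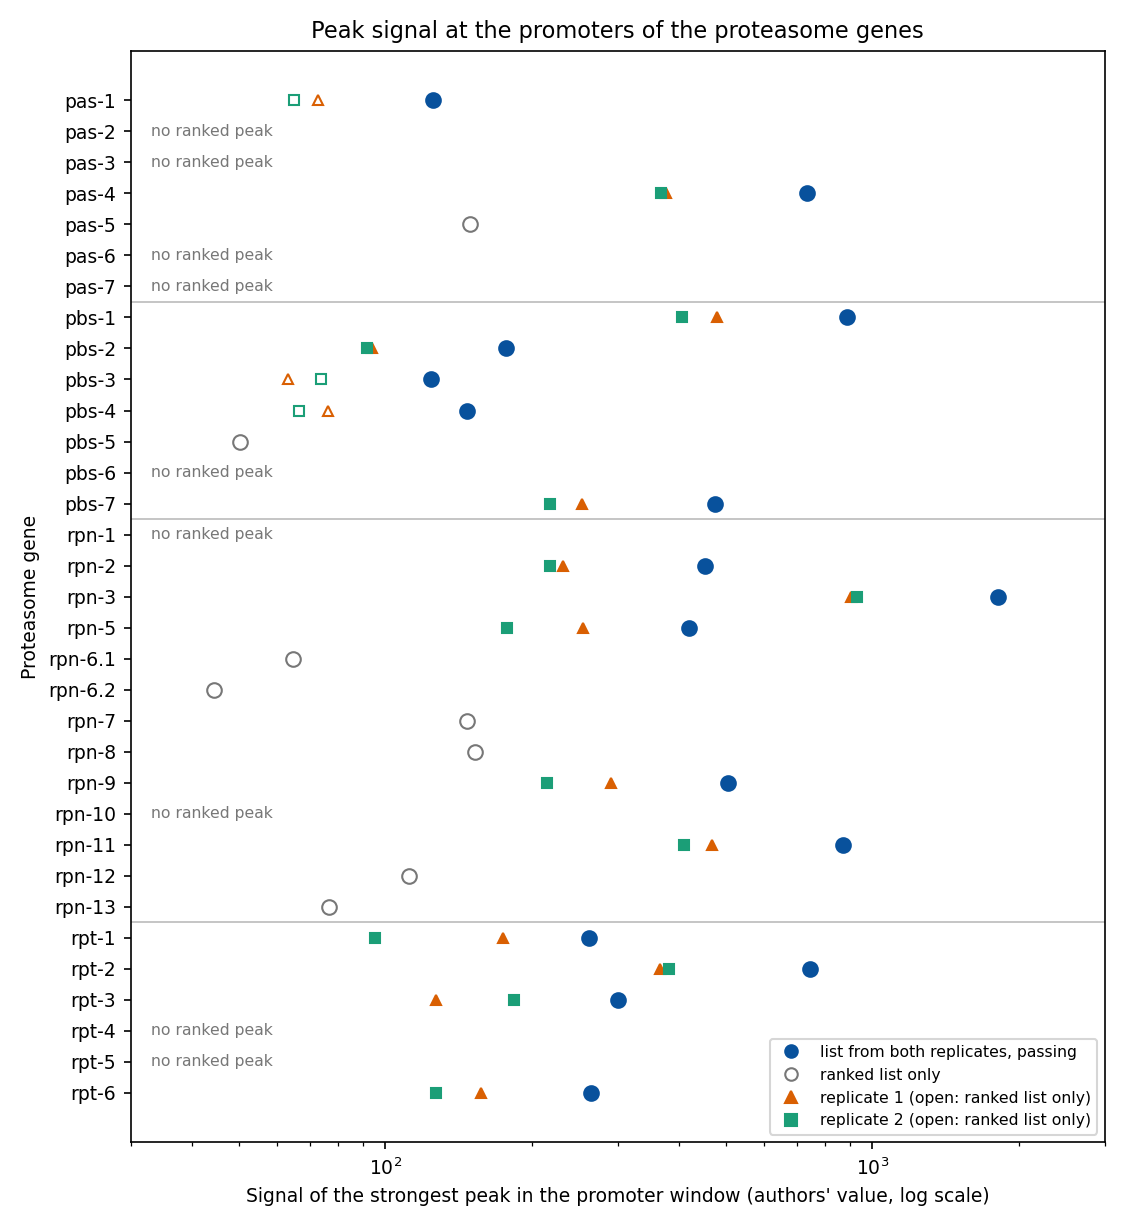
Signal of the strongest peak in the promoter window (x axis, log scale, the authors' value) for each of the 33 proteasome genes (y axis). Filled circles are peaks of the list from both replicates, open circles are peaks of the ranked list only, and triangles and squares are the matching peaks of replicates 1 and 2, open where they are in the ranked list only. The 16 genes with a passing peak range from 124 at pbs-3 to 1813 at rpn-3, and replicate values of different lists are not on a common scale with the combined list.

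The signal is the authors' height value for a peak and is compared here only with other peaks of the same list. The strongest summit of the 16 genes had a median signal of 437, against 354 for the 2812 protein-coding genes with a summit. The corresponding summit stood above a median of 70.9% of the peaks in the list for the proteasome genes and of 62.3% for all genes with a summit. Core genes had a median of 177 and regulatory genes of 453. Without pas-1, pbs-3 and pbs-4, which passed in neither replicate alone, the median of the other 4 core genes was 606, a setting chosen after the values were seen. In the list of replicate 1 the medians were 315 for 4 core genes and 203 for 12 regulatory genes, and in that of replicate 2 they were 293 for 4 and 215 for 9. The order of the particles thus differed between the combined list and each replicate, which hold different sets of genes. Over the 13 genes of replicate 2 the order did not differ, as the combined medians were 606 for core and 453 for regulatory genes. Core genes ran from 124 to 887 and regulatory genes from 262 to 1813. The groups overlapped, as pbs-1 (887) and pas-4 (735) exceeded most of the regulatory genes.

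The strongest site of the family lay at rpn-3, which encodes a lid subunit. The peak extended from 8447027 to 8447305 on chromosome III (ce11), between genes, with its summit 184 bp upstream of the 5′ end. The signal was 1813 in the combined list (rank 145 of 4560), 904 in replicate 1 (rank 166) and 932 in replicate 2 (rank 120). Thus rpn-3 stood among the strongest peaks of both replicates. The rpn-11 site came next in the lid. This gene encodes the metalloprotease that cleaves ubiquitin chains from substrates, and its summit lay 16 bp upstream of the 5′ end (chromosome II, 4044447 to 4044691), the closest of the family. It had a signal of 869, with 469 in replicate 1 and 411 in replicate 2. The other lid genes with a summit were rpn-9 (chromosome II, 11239068 to 11239286), 260 bp upstream with 506, and rpn-5 (chromosome II, 4698356 to 4698551), 44 bp upstream with 421. In replicate 1 they had 291 and 254, and in replicate 2 they had 215 and 178.

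Of the large base scaffold genes, rpn-2 (chromosome III, 6198737 to 6198932) had a summit 362 bp upstream with a signal of 453. It had 232 in replicate 1 and 218 in replicate 2. Its partner rpn-1 had no ranked peak in the window of the combined list.

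Among the ATPase genes, rpt-2 had the strongest site, at chromosome V, 6017702 to 6017926, with the summit 144 bp upstream of the 5′ end. Its signal was 746 in the combined list, 367 in replicate 1 and 383 in replicate 2. The rpt-1 peak (chromosome V, 11982310 to 11982709) lay 113 bp upstream with 262, and had 174 in replicate 1 and 95.3 in replicate 2. At rpt-6 there were 2 summits, the only such case in the family. The one at chromosome III, 12370121 to 12370277 lay 241 bp upstream with 264, and had 157 and 127 in replicates 1 and 2. The weaker one, at 12369497 to 12369896, lay 759 bp upstream with 156. It had 128 in replicate 2, and its 78.9 in replicate 1 did not pass that replicate's threshold. The rpt-3 summit (chromosome III, 6489029 to 6489177) lay 680 bp upstream, within the annotated 3′ UTR of the preceding gene chtb-2, with 300 in the combined list, 127 in replicate 1 and 184 in replicate 2. No ranked peak of the combined list lay in the windows of rpt-4 and rpt-5.

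Of the catalytic beta subunit genes, pbs-1, which encodes the caspase-like subunit, had the strongest site of the core particle. Its peak (chromosome IV, 1709815 to 1710065) had its summit 205 bp upstream and a signal of 887, with 480 in replicate 1 and 407 in replicate 2. The trypsin-like subunit gene pbs-2 had 177 at 322 bp upstream (chromosome I, 12968402 to 12968801), with 93.7 in replicate 1 and 91.7 in replicate 2. For the chymotrypsin-like subunit gene pbs-5, a peak of 50.3 with an IDR of 0.270 stood in the ranked list only. Catalytic subunit genes thus ranged from rank 526 of 4560 to no passing peak. The non-catalytic pbs-7 had 476 at 139 bp upstream (chromosome I, 8696330 to 8696544), with 253 and 218 in replicates 1 and 2. Those of pbs-4 (147, chromosome I, 3908423 to 3908822) and pbs-3 (124, chromosome II, 4955369 to 4955768) lay 124 and 142 bp upstream. Neither passed the threshold in either replicate alone. In the ranked lists of replicates 1 and 2, pbs-4 had 76.2 and 66.4, and pbs-3 had 63.2 and 73.9. The pbs-3 summit lies within the annotated 3′ UTR of the upstream gene ulp-2, a SUMO protease gene that ends 22 bp before pbs-3. Of the remaining beta genes, pbs-6 had no ranked peak in the combined list.

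Only 2 alpha subunit genes had a summit. The pas-4 peak (chromosome I, 8728516 to 8728744) lay 147 bp upstream of the gene with a signal of 735, and had 377 in replicate 1 and 368 in replicate 2. The pas-1 peak (chromosome V, 14423234 to 14423633) was among the weakest of the family at 125 and lay 816 bp upstream. It had 72.7 and 65.0 in replicates 1 and 2, below the threshold in each. In pas-2, pas-3, pas-6 and pas-7 no ranked peak of the combined list lay in the window.

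**Figure D2:**
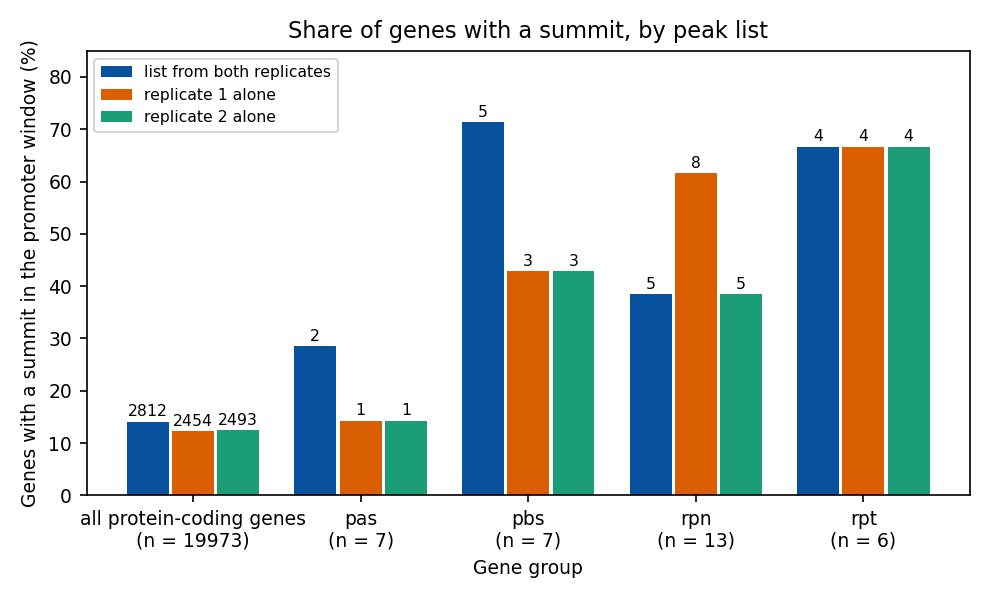
Percent of genes with a summit in the promoter window (y axis) for all protein-coding genes and for the pas, pbs, rpn and rpt genes (x axis), in the list from both replicates and in the list of each replicate alone. Numbers above the bars are gene counts. The rpt genes have 4 of 6 in each of the lists, the pbs genes 5 of 7 in the combined list and 3 in each replicate, and the rpn genes 8 of 13 in replicate 1 and 5 in replicate 2.

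In the list of replicate 1 alone, 16 of the 33 genes had a summit, against 12.3% of all protein-coding genes. In that of replicate 2 there were 13, against 12.5%. Over all protein-coding genes, 2454 had a summit in replicate 1, 2493 in replicate 2 and 2154 in both. The 13 genes of replicate 2 were also in replicate 1 and in the combined list. They were pas-4, pbs-1, pbs-2, pbs-7, rpn-2, rpn-3, rpn-5, rpn-9, rpn-11, rpt-1, rpt-2, rpt-3 and rpt-6. The 3 genes of the combined list that were in neither replicate's list, pas-1, pbs-3 and pbs-4, all belong to the core particle. Conversely, replicate 1 had peaks at the lid genes rpn-7, rpn-8 and rpn-12 that the combined list does not hold. Both counts of 3 are given without the same shares over all genes. For rpn-7 the values were 96.2 in replicate 1 (IDR 0.00970) and 56.5 in replicate 2 (IDR 0.0506). The rpn-8 gene, which encodes the partner of RPN-11, had 87.0 (IDR 0.00235) and 45.5 (IDR 0.649). Values for rpn-12 were 93.4 (IDR 0.00550) and 35.0 (IDR 0.666). In these 3 genes the strongest ranked peak in the window was thus above the threshold in replicate 1 and below it in replicate 2. These peaks of the 2 replicates were not matched by position. These IDRs are from each replicate's own ranked list and do not compare the 2 replicates.

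Of the 17 summits, 13 (76.5%) had a matching summit within 200 bp in the lists of both replicates, against 67.1% of the 4560 summits of the combined list. The matching summits, ranked lists included, lay at most 34 bp away. Expressed as the percent of a replicate's thresholded peaks with lower signal, the places of these 13 summits in the replicates differed by a median of 4.20 percentage points, against 5.01 for the 3058 summits of all genes found in both. Among these 13, ATPase genes held the widest gaps. The rpt-3 summit stood above 30.5% of peaks in replicate 1 and 59.7% in replicate 2, and the rpt-1 summit above 48.9% and 20.2%. Both gaps exceed 19.5 points, the 90th percentile over all summits found in both lists. The remaining ATPase site in the upper part of the lists, rpt-2, stood above 79.8 and 84.1%. Of all 17 summits the widest gap was that of the weaker rpt-6 summit, which was in the ranked list only in replicate 1 and stood above 3.54% of peaks there and 39.7% in replicate 2.

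**Figure D3:**
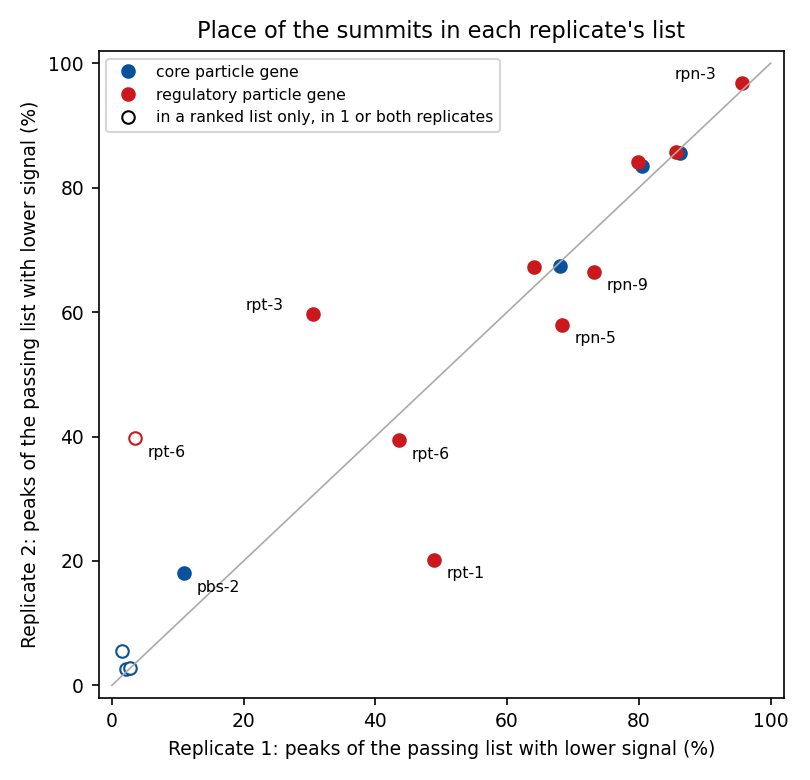
Place of the 17 proteasome gene summits in each replicate, as the percent of that replicate's thresholded peaks with lower signal (replicate 1 on the x axis, replicate 2 on the y axis). Open points were only in a ranked list in 1 or both replicates, and the line marks equal places. Most summits lie near the line, rpn-3 at 95.6 and 96.8%, while the weaker rpt-6 summit lies farthest above it at 3.54 and 39.7%, rpt-3 lies above it at 30.5 and 59.7% and rpt-1 below it at 48.9 and 20.2%.

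All 17 summits lay upstream of the 5′ end of the proteasome gene. Taking the strongest summit of each gene, 16 of 16 were upstream, at a median of 165.5 bp, against 91.5% and 221.5 bp for all genes with a summit. Within 200 bp upstream lay 9 of the 16 (56.2%), against 38.1% of all. By annotation, 15 summits were intergenic and 2, at pbs-3 and rpt-3, were in 3′ UTR exons of the preceding gene. At pas-4, rpn-3 and rpt-2 an annotated non-coding RNA gene lay within 500 bp. These counts by location are given without the same shares over all summits.

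Many of these summits cannot be ascribed to the proteasome gene alone. For 10 of the 16 genes (62.5%) the strongest summit also lay in the promoter window of another protein-coding gene, against 48.0% of all genes with a summit. In 9 of the 10 the neighbour is transcribed divergently from the same intergenic region. Thus rpn-3 shares its site with hsp-110, a heat shock protein gene whose 5′ end is 260 bp from the summit. The scc-1 gene, which encodes a cohesin subunit, shares the rpn-5 site at 250 bp. For rpt-2 the neighbour is aps-1, a clathrin adaptor subunit gene, at 157 bp, and for pbs-2 it is eif-6, a translation initiation factor gene, at 344 bp. The pas-4 site lies closer to rpb-3, an RNA polymerase II subunit gene (130 bp), than to pas-4 (147 bp). In the same way pbs-1 shares with K08D12.3 (315 bp), pbs-7 with F39H11.1 (163 bp), rpn-2 with C23G10.7 (408 bp) and rpn-9 with T06D8.9 (418 bp). The exception is pas-1, whose site lies 130 bp upstream of the RNA polymerase I subunit gene rpoa-12. That gene precedes pas-1 on the same strand and ends 106 bp before it. The weaker rpt-6 summit is also shared, with the histone gene his-72 at 647 bp. Sites of pbs-3, pbs-4, rpn-11, rpt-1 and rpt-3 and the stronger rpt-6 site lay in no other protein-coding gene's window.

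**Figure D4:**
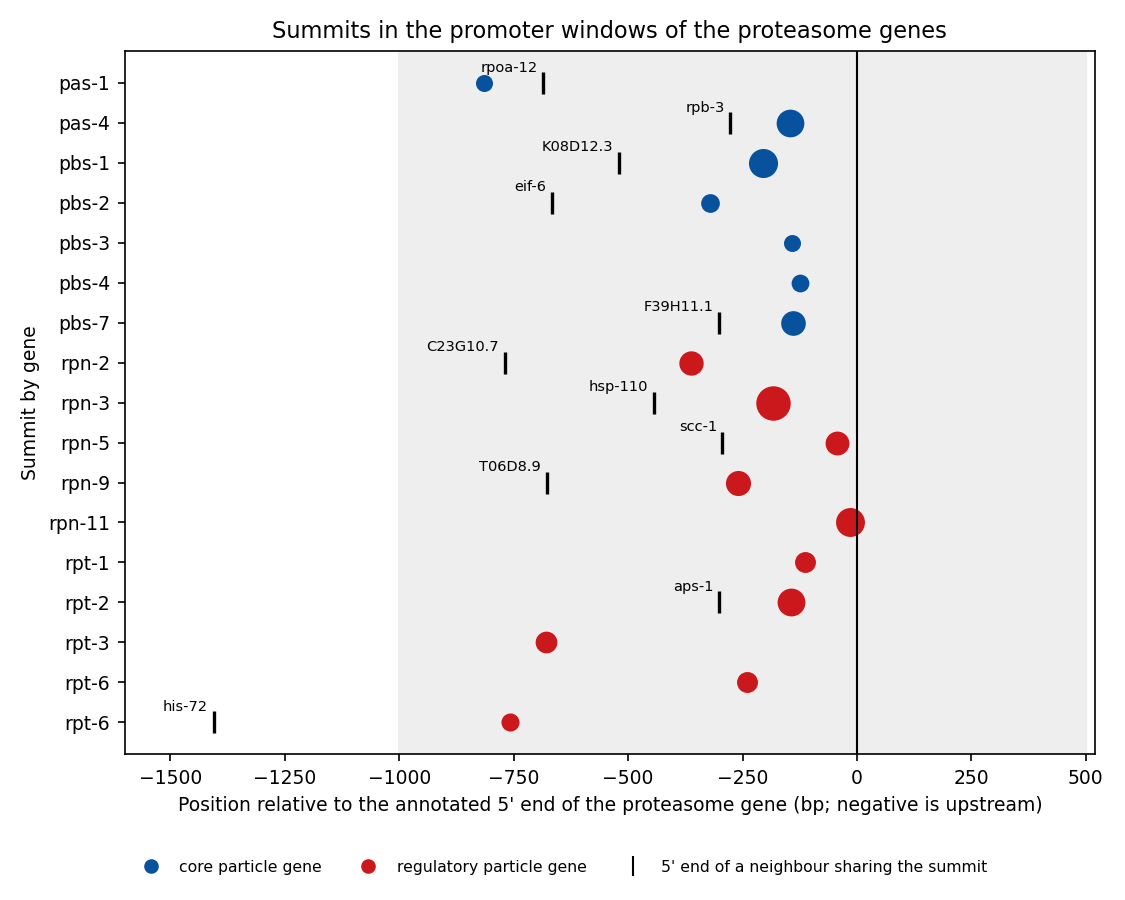
Positions of the 17 summits (circles, larger for higher signal, blue for core and red for regulatory particle genes) relative to the annotated 5′ end of the proteasome gene (x axis, bp, negative upstream), with vertical ticks at the 5′ ends of neighbouring genes whose window holds the same summit. The grey area is the promoter window. All circles lie to the left of 0, from 16 bp at rpn-11 to 816 bp at pas-1, and in 9 genes the circle of the strongest summit lies between the 5′ ends of a divergent pair.

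The arrangement of neighbours was set beside the same arrangement over the genome. Of the 33 proteasome genes, 20 had a divergent upstream neighbour under 1000 bp away, and 9 of these 20 had a summit, against 31.4% of the 3502 protein-coding genes so arranged. With an upstream neighbour on the same strand, 5 of 10 proteasome genes had a summit (pas-1, pbs-3, rpn-11, rpt-1 and rpt-3), against 9.25% of 10898 genes. These shares were not compared by a test. By chromosome, summits were found at 4 of 10 proteasome genes on I, 4 of 7 on II, 4 of 8 on III, 1 of 3 on IV and 3 of 5 on V, while chromosome X holds none of the family. The shares of all protein-coding genes were 17.5% on I, 13.8% on II, 20.6% on III, 12.6% on IV and 10.4% on V.

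In the combined ranked list, the proteasome genes without a passing summit fell into those with weak peaks and those with none. Nearest to the threshold was rpn-7, with a signal of 147 and an IDR of 0.0115, while pbs-3, the passing gene of lowest signal, had 124 and an IDR of 0.00677. At rpn-8 the combined peak had 153 but an IDR of 0.347. In the ranked list, pas-5 had 149 (IDR 0.525), rpn-12 had 112 (IDR 0.526), rpn-13, a ubiquitin receptor gene, had 76.7 (IDR 0.426), and the paralogues rpn-6.1 and rpn-6.2 had 64.5 and 44.4 (IDR 0.525 and 0.723). In the combined ranked list no peak was in the windows of the ubiquitin receptor gene rpn-10 or of rpn-1, pas-2, pas-3, pas-6, pas-7, pbs-6, rpt-4 and rpt-5. Other ranked lists held weak peaks at some of these genes. The pooled pseudoreplicate one had 89.2 at pas-3 (IDR 0.206) and 59.1 at pbs-6 (IDR 0.733). In that of replicate 2 the highest was 66.4 at pas-3 (IDR 0.102). Among summits that passed the threshold in the combined list, the outermost inside the window was that of pas-1 at 816 bp. Just outside lay passing summits 1127 bp upstream of pas-5, with a signal of 1546, and 1153 bp upstream of pbs-5, with 364. The nearest summit of rpt-4 lay 2383 bp downstream of the outermost 5′ end, at a signal of 171, and falls in the window only when the 5′ end of every transcript is used.

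The sequence around 5 sites of high signal, which stood above most peaks in both replicates, is shown to place the words sought in them. The sites of pas-4 (735) and pbs-7 (476) also stood above most peaks in both replicates and are not printed here, although the signal of pas-4 is higher than that of rpn-9 (506). The windows span 50 bp on either side of the summit for rpn-3 (chrIII:8447119-8447219, plus strand), pbs-1 (chrIV:1709900-1710000, minus strand), rpn-11 (chrII:4044512-4044612, minus strand), rpt-2 (chrV:6017763-6017863, minus strand) and rpn-9 (chrII:11239129-11239229, minus strand), in WBcel235 (ce11), each read on the strand of the gene. Capitals mark the words GTCAT or ATCAT, the core of the SKN-1 site, where they occur.
rpn-3: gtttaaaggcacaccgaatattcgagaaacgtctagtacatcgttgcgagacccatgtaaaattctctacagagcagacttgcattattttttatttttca
pbs-1: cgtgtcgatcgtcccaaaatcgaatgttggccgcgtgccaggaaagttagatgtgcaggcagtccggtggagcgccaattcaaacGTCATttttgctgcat
rpn-11: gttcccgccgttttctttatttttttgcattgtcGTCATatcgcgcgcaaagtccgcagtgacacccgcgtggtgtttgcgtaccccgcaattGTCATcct
rpt-2: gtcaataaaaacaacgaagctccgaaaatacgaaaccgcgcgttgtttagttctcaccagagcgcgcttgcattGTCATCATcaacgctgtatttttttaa
rpn-9: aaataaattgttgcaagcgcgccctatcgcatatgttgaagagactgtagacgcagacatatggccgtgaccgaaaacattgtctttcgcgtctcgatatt

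In these windows, rpn-11 holds GTCAT at 2 places and rpt-2 holds GTCAT overlapping ATCAT, pbs-1 holds GTCAT once, and rpn-3 and rpn-9 hold neither word. Words were sought on both strands within 50 bp of each of the 17 summits. GTCAT or ATCAT was present at 8 (47.1%), against 30.7% of all 4560 summits and 33.2% of the 19973 windows of equal width that lie 151 to 51 bp upstream of protein-coding 5′ ends. The 8 were at pbs-1, pbs-2, pbs-4, pbs-7, rpn-11, rpt-1, rpt-2 and rpt-3. The GAGA repeat GAGAGA was at 0 of 17, against 25.8% of all summits and 9.0% of the promoter windows. The E-box CACGTG was likewise at 0, against 7.76 and 2.45%, and the nuclear receptor half-site (AGGTCA or GGGTCA or AGTTCA or GGTTCA) at 0, against 13.7 and 15.1%. CCGCCC, the CG-rich box, was at 1, that of pbs-3, against 5.68 and 3.36%. The absence of a word says only that these letters are not in the window. The GC content of the 17 windows had a median of 44.6% (36.6 to 57.4%), and that of all summits 45.5%.

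Beyond the members taken by symbol, genes of ubiquitin supply, substrate delivery and proteasome control were examined as a list of 17. Of these, 8 (47.1%) had a summit in the promoter window against 14.1% of all genes. The list was written with earlier results of these data known, so this share is a description only. The strongest was at ubql-1, which encodes the shuttle factor ubiquilin, with a signal of 1496, and 785 and 723 in replicates 1 and 2. The site lies 518 bp from the 5′ end of ubql-1 and also in the window of pdi-3, at 657 bp. The ubiquitin gene ubq-2 had 741, with 391 and 356 in the replicates, at a site nearer to frg-1 (155 bp) than to ubq-2 (484 bp). The polyubiquitin gene ubq-1 had 299 at 484 bp downstream of its 5′ end, in an intron, and 165 at 582 bp upstream. WDR-23 is known to hold SKN-1 down, and its gene had 562 at 6 bp upstream, with 293 and 261 in the replicates. The arsenite-inducible gene aip-1 had 391, and the deubiquitinase genes usp-14 and ubh-4 had 357 and 267. These sites also lay in the windows of ddx-17 (215 bp), vnut-1 (983 bp) and algn-6 (199 bp), so that 5 of the 8 genes (62.5%) shared their strongest summit, against 48.0% of all genes with a summit. At sel-1, a gene of endoplasmic reticulum-associated degradation, the value was 168. In the combined list no summit lay in the windows of skn-1 or of png-1 and ddi-1, which encode enzymes that process SKN-1A. The same held for sel-11, uba-1, dss-1, psmd-9, psme-3 and rad-23. The count of 8 depended on the setting. It was 9 with the 5′ end of every transcript (15.1% of all genes) and 9 in replicate 1 alone (12.3%). With 500 bp upstream to 250 bp downstream it was 6 (11.1%). Among the strongest 50% of peaks it was 7 (8.72%), and with each summit given to the nearest gene only it was 7 (10.6%). In the other settings it stayed at 8. The gene rad-23 encodes another shuttle factor and lies divergently from rpn-12, and both windows hold the same ranked peak of 112.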

How the data were processed

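Sites were mapped by chromatin immunoprecipitation and sequencing in 2 biological replicates of 1 group, per the labels. The deposited files are peak lists on ce11 that the authors made. Each peak has a signal, the authors' height value, and the deposited ranked lists hold the −log10 of the global IDR. Which peak caller, aligner and control library were used is not given in the sources used here. No read counts are in these lists. Depth is therefore unknown, and no precision follows from it. The combined list used here is the one from true replicates. The ranked combined lists also hold 16 unnamed columns on single replicates that were not used.

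Summits (start plus offset, written 1-based) were assigned to Ensembl release 115 genes with Python 3.11.15 and pandas 2.3.3. A replicate's peak was matched within 200 bp. In the RefSeq WBcel235 genome, the annotated coding start of 33 of 33 members reads ATG. No test was made: with 1 group and no counts, shares stand beside those of all genes. The window assignment was checked on planted summits. The members and lists were chosen with earlier results of these data known, and the grouping into lid and base was added after the values were seen. Named genes are all members, all genes of the 17-gene list, and the neighbours that share a summit. Sequences are those of the 5 members of highest signal outside chromosome I. Alternatives were other lists, thresholds, windows and assignments.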

Additional observations from a re-analysis of the deposited data

How the results depend on the processing

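The count of 16 proteasome genes with a summit ranged from 10 to 18 over 11 alternatives, beside 8.72 to 18.1% of all protein-coding genes. With only the strongest 50% of peaks it was 10, of which 3 were core genes, beside 8.72% of all genes. With 1 replicate left out, the count was 13 to 16, that of core genes 4 (7 with both), that of regulatory genes 9 to 12 (9 with both), and the share of all genes 12.3 to 12.5% (14.1% with both). The share of all genes was also 15.7% at an IDR of 0.05 or less, 11.1% with 500 bp upstream to 250 bp downstream, 18.1% with 2000 bp upstream, 15.1% with the 5′ end of every transcript, 15.1% with peak overlap and 10.6% with each summit given to the nearest gene only. By construction, the last setting left 0 shared summits. In it pas-1 and pas-4 had none, and 14 proteasome genes had one. The pooled pseudoreplicate list lacked pas-1 and pbs-3 and added rpn-8. In all 11 alternatives 8 genes had a summit (pbs-1, pbs-7, rpn-2, rpn-3, rpn-5, rpn-9, rpn-11 and rpt-2). For 11 genes neither the combined list nor any of these 11 alternatives gave a summit. Both counts are given without the same shares over all protein-coding genes. No paired analysis was possible because there is 1 group and no test. Weak peaks depend on a depth that is unknown. Of the combined list, 2417 peaks (53.0%) are exactly 400 bp wide, with a median signal of 182 against 516 for the others, and pas-1, pbs-2, pbs-3, pbs-4, rpt-1 and the weaker rpt-6 peak are among them.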
